A study of Homo sapiens with 6 samples.

Results

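The 10 genes described here move, store and sense iron, and they were followed in HepG2 cells, a human hepatoma line, after knockdown of KIF11, the kinesin motor that separates spindle poles in mitosis. The genes were picked by symbol as transferrin and its receptors, the 2 ferritin chains, the iron transporters, ceruloplasmin, hepcidin and HFE. Earlier results of these data were known when they were chosen. All 10 were present among the 20030 genes of the deposited count table. The study asked how loss of KIF11 relates to senescence of hepatoma cells, and its mRNA sequencing compared 3 libraries with a control shRNA (sh-ctrl) with 3 libraries with an shRNA against KIF11 (sh-KIF11). Both groups were the same line, stably transduced with lentivirus, and the labels give no other treatment and do not tell several shRNA sequences apart. Polyadenylated RNA was sequenced with a stranded kit.

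Hepatocytes make transferrin, which carries ferric iron in blood, and take it up through transferrin receptors. Iron that is not used is held in ferritin, a shell of heavy and light chains, and leaves the cell only through ferroportin, the product of SLC40A1. The liver hormone hepcidin, encoded by HAMP, blocks ferroportin throughout the body, and HFE and transferrin receptor 2 belong to the surface machinery that tunes hepcidin to iron supply. Inside cells, iron regulatory proteins bind hairpins called iron-responsive elements (IREs) in mRNA when iron is short. A hairpin in the 5′ untranslated region (UTR) then holds back translation, whereas the hairpins in the 3′ UTR of TFRC protect that mRNA from decay.

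Through these hairpins iron acts on an mRNA, and they were therefore looked up in the GRCh38 sequence of GENCODE 29 transcripts. The pattern was a C, a stem of 5 bases, the 6-base loop CAGTGN and a matching stem, with G opposite T allowed. Such a match occurred in the 5′ UTR of 36 of 18794 genes (0.192%) and in the 3′ UTR of 132 of 19091 genes (0.691%). The sites are printed as DNA in the direction of the mRNA, with the loop in capitals, because elements of this form are known for ferritin, ferroportin and TFRC.
FTH1 5′ UTR, chr11:61967575-61967601, minus strand: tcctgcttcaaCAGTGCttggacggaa
FTL 5′ UTR, chr19:48965336-48965362, plus strand: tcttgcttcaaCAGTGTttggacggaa
SLC40A1 5′ UTR, chr2:189580662-189580688, minus strand: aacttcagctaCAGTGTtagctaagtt
TFRC 3′ UTR, chr3:196050980-196051006, minus strand: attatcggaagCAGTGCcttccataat
TFRC 3′ UTR, chr3:196050576-196050602, minus strand: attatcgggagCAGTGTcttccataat
TFRC 3′ UTR, chr3:196050511-196050537, minus strand: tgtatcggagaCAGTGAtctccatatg
TFRC 3′ UTR, chr3:196050464-196050490, minus strand: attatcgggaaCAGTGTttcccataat

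The ferritin elements shared 25 of 27 bases, while that of SLC40A1 shared 13 of 27 with each of them. The 4 TFRC elements that matched the pattern shared between 17 and 25 of 27 bases with one another, and any TFRC element of another shape would be missed. TFR2, HAMP, SLC11A2, CP and HFE held no match to these letters, which says nothing of elements with another shape, such as the bulged one known for a form of SLC11A2. TF had 1 match, in the 3′ UTR of a single transcript of 20602 bases that runs on into the next gene, and it is not treated as an element here.

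The libraries held 18167773 to 19583282 counts. The counts of KIF11 itself were 1976, 2088 and 2039 with the control shRNA and 1448, 1478 and 1240 with the shRNA against it, a log2 fold change of -0.75 ± 0.06 (SE, edgeR adjusted p = 4.22e-15), so that all knockdown libraries lay below all controls. Here and below, fold changes are sh-KIF11 against sh-ctrl with 3 libraries a group, and adjusted p-values are those of the edgeR quasi-likelihood F test after Benjamini-Hochberg adjustment over the 12369 genes tested. Levels are in CPM, counts scaled to a common library size with TMM factors, unless FPKM, the authors' length-scaled value, is named. The summed level of 8 hepatocyte markers was 28990 to 30090 CPM in sh-ctrl and 13500 to 14660 CPM in sh-KIF11, with 7 of 8 lower, and both hepatoblast or hepatoma markers were lower too (summed level 2676 to 3006 CPM and 1180 to 1273 CPM). Endothelial markers, nearly all from PECAM1 and VWF, summed to 3.10 to 3.55 CPM and 4.68 to 4.98 CPM, and VWF was the one that was higher. Markers of stellate cells, mostly PDGFRB, summed to 2.55 to 3.88 CPM and 1.40 to 2.04 CPM. Macrophage markers summed to 77.1 to 87.7 CPM and 41.2 to 46.1 CPM, nearly all of it from CD68, a lysosomal gene, with CD163 at 0 and 3 of the 4 markers at 3 counts or fewer in every library, and erythroid markers stayed at or below 0.193 CPM with HBB at 0. All libraries are of the HepG2 line, so these sums are not shares of different cell types. Bulk RNA cannot tell fewer HepG2 cells with a marker from less of its RNA per cell.

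The iron genes moved unevenly. TF, TFR2 and CP fell to between 0.205 and 0.237 of their control level, SLC40A1 rose 2.19-fold, TFRC, FTL, SLC11A2 and HFE fell by less than 2-fold, and FTH1 and HAMP did not pass the test. In all, 8 of the 10 genes passed (80%), against 69.1% of all genes tested, a share near that background. Of them 7 were lower and 1 was higher, where 34.7% of all genes tested were lower and 34.4% higher. On the CPM scale the groups did not overlap for 8 of the 10 genes, against 71.2% of all genes tested. The median log2 fold change was -0.49 over the 10 genes and 0.0043 over all genes tested. By size, 4 of the 10 changed at least 2-fold and passed, as did 11.7% of all genes tested, and 3 of the 57 genes that fell by 2 or more on the log2 scale were among the 10.

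**Figure D1:**
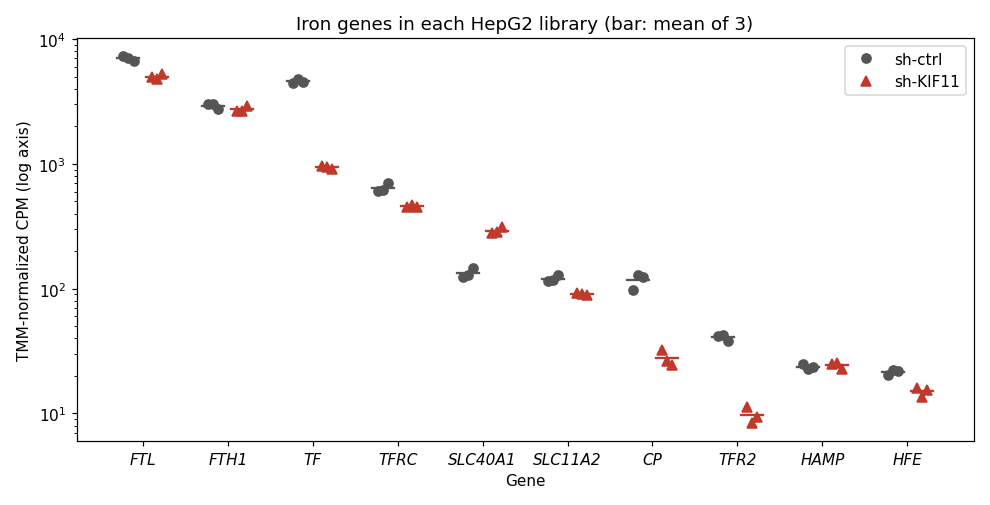
TMM-normalized CPM (log axis) of the 10 iron genes in each library, with sh-ctrl as grey circles, sh-KIF11 as red triangles and the mean of 3 libraries as a bar. TF, CP and TFR2 show the widest gaps downward, SLC40A1 is the one gene with every knockdown library above every control, and the groups overlap for FTH1 and HAMP.

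Among the genes of iron supply, TF (chr3:133745956-133796640) encodes transferrin. Its level was 4413, 4836 and 4494 CPM in sh-ctrl and 968, 936 and 918 CPM in sh-KIF11. Every control library was more than 4 times as high as any knockdown library. The log2 fold change was -2.28 ± 0.05 (SE, edgeR adjusted p = 2.43e-33), the 32nd lowest of the 12369 tested. TF alone made up 0.423% ± 0.0200 (SD, n = 3) of all counts in the controls and 0.102% ± 0.00247 after knockdown. Part of the TF locus overlaps SRPRB on the same strand. SRPRB fell from 26.2 to 22.6 FPKM (log2 fold change -0.38 ± 0.06, SE, edgeR adjusted p = 2.12e-07), against 874 and 204 FPKM for TF.

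TFRC (chr3:196027183-196082189), transferrin receptor 1, is the main port of entry for transferrin-bound iron. It measured 602, 621 and 702 CPM in sh-ctrl and 454, 470 and 448 CPM in sh-KIF11. The knockdown libraries were all lower, by a log2 fold change of -0.49 ± 0.05 (SE, edgeR adjusted p = 4.11e-11). TFR2 (chr7:100620416-100642779), the second receptor, found mainly in liver and in red cell precursors, measured 41.5, 42.8 and 38.3 CPM in sh-ctrl. In sh-KIF11 it measured 11.3, 8.45 and 9.33 CPM, and its log2 fold change was -2.08 ± 0.09 (SE, edgeR adjusted p = 5.90e-23). The receptors therefore fell to different extents: TFRC kept 0.713 of its control level and TFR2 0.237. HFE (chr6:26087281-26098343), which binds transferrin receptor 1 and is mutated in hereditary haemochromatosis, measured 20.2, 22.3 and 21.9 CPM in sh-ctrl. The knockdown libraries had 16.1, 13.6 and 15.4 CPM, again without overlap (log2 fold change -0.51 ± 0.09, SE, edgeR adjusted p = 3.51e-06).

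SLC11A2 (chr12:50979401-51028566), also called DMT1, carries ferrous iron out of endosomes after uptake. It measured 114, 117 and 128 CPM in sh-ctrl and 91.7, 91.2 and 89.5 CPM in sh-KIF11. The groups did not overlap, and the log2 fold change of -0.40 ± 0.05 (SE, edgeR adjusted p = 1.51e-08) was the smallest among the genes that passed.

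The chains of ferritin differed from each other. FTL (chr19:48965301-48966878), the light chain, measured 7300, 7006 and 6728 CPM in sh-ctrl and 4991, 4777 and 5254 CPM in sh-KIF11. All knockdown libraries were lower, with a log2 fold change of -0.49 ± 0.05 (SE, edgeR adjusted p = 2.28e-11). FTH1 (chr11:61959718-61967660), the heavy chain, which oxidises iron before storage, measured 3010, 3004 and 2777 CPM in sh-ctrl and 2675, 2662 and 2885 CPM in sh-KIF11. The groups overlapped, and the log2 fold change was -0.10 (95% interval -0.19 to 0.00, edgeR adjusted p = 0.0793). Its call and its direction depended on the scaling: with library totals alone FTH1 was at 0.13 (edgeR adjusted p = 0.0148, range over the alternatives 0.00124 to 0.766), below the median of 0.23 that this scaling gave over all genes tested. GENCODE 29 holds 25 pseudogenes named for FTH1 and 16 named for FTL, and the count table lists 1 of the former, at 0 counts. How reads matching several copies were counted is not given in the sources used here, so the ferritin levels carry that uncertainty.

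The mRNA of the iron exporter moved the other way. SLC40A1 (chr2:189560579-189583758), ferroportin, measured 125, 129 and 146 CPM in sh-ctrl and 279, 286 and 310 CPM in sh-KIF11. It was the 1 member that was higher, with each knockdown library above each control (log2 fold change 1.13 ± 0.05, SE, edgeR adjusted p = 1.53e-21), ranking 853rd from the top of the 12369 genes. CP (chr3:149162410-149222055) encodes ceruloplasmin, the secreted copper ferroxidase that readies exported iron for transferrin. It measured 98.4, 130 and 124 CPM in sh-ctrl and 32.5, 26.1 and 24.5 CPM in sh-KIF11. The knockdown libraries were all lower, by a log2 fold change of -2.08 ± 0.08 (SE, edgeR adjusted p = 8.41e-25). HPS3 overlaps CP on the opposite strand and did not pass the test (log2 fold change 0.093 ± 0.078, SE, edgeR adjusted p = 0.289).

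HAMP (chr19:35280716-35285143), hepcidin, averaged 23.7 CPM with an SD of 1.21 in the 3 controls and 24.3 CPM with an SD of 1.37 after knockdown. Its raw counts were 446, 408 and 397 for the control shRNA against 500, 522 and 448 for the knockdown. The groups overlapped on the CPM scale, and the log2 fold change was 0.035 (95% interval -0.12 to 0.19, edgeR adjusted p = 0.717). Under library totals alone it was 0.27 (edgeR adjusted p = 0.00355, range over the alternatives 0.00355 to 0.965), close to the median of 0.23 over all genes tested under that scaling. The other hepatocyte-secreted genes of this group, TF and CP, fell to 0.205 and 0.236 of control in the same libraries, and 7 of the 8 hepatocyte markers fell, from -1.92 for APOA1 to -0.35 for APOB on the log2 scale. TTR, another secreted hepatocyte marker, did not pass either (log2 fold change -0.13, edgeR adjusted p = 0.229). The part of the lower hepatocyte markers in these changes was not tested.

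**Figure D2:**
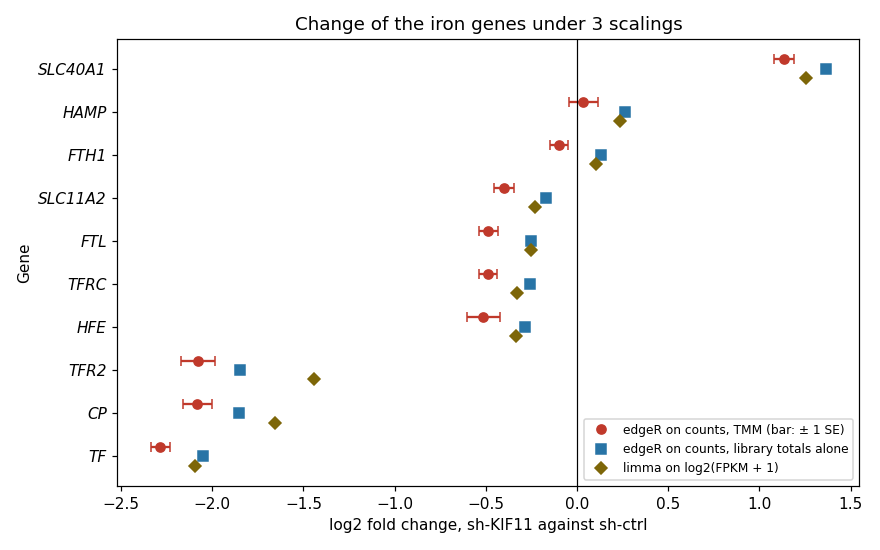
Log2 fold change of the 10 iron genes (sh-KIF11 against sh-ctrl) from edgeR with TMM (red circles, bars ± 1 SE), edgeR with library totals alone (blue squares) and limma on log2(FPKM + 1) (brown diamonds). FTH1 crosses 0, from -0.10 to 0.13 and 0.10, while TF, TFR2 and CP stay far to the left and SLC40A1 to the right under all 3.

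The scale of the smaller falls depended on the normalization. With library totals alone, log2 fold changes were -0.26 for TFRC, -0.26 for FTL, -0.17 for SLC11A2 and -0.28 for HFE, all still past the threshold. On log2(FPKM + 1), which understates the change of low genes, TFR2 was at -1.44. The 20 most abundant genes took 9.35% to 9.68% of the counts in sh-ctrl and 6.91% to 7.04% in sh-KIF11. TMM gave 4254 genes higher and 4294 lower over the whole table. It assumes that most genes do not change, so a near-even split follows in part from the method. With library totals alone the split was 6619 and 2378, and with upper-quartile scaling it was 5014 and 3563.

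On the FPKM scale, which allows levels of different genes to be compared, the ferritin chains led in both groups: FTL had 5448 ± 234 FPKM (SD, n = 3) and FTH1 1971 ± 98.3 FPKM in sh-ctrl. TF came next at 874 ± 44.9 FPKM, then TFRC at 90.2 ± 6.03 FPKM. SLC40A1 (36.9 to 41.3 FPKM) and HAMP (31.3 to 37.5 FPKM) overlapped in sh-ctrl, and SLC11A2, CP, TFR2 and HFE followed in that order without overlap, down to 5.36 ± 0.154 FPKM for HFE. In sh-KIF11 FTL had 4574 ± 215.5 FPKM and FTH1 2119 ± 99.9 FPKM, and the order changed at 2 places. SLC40A1, at 93.2 ± 6.46 FPKM, passed TFRC, at 71.6 ± 1.46 FPKM, and HFE (3.74 to 4.29 FPKM) reached the level of CP (2.96 to 3.95 FPKM), with overlap, while TFR2 was last at 1.82 to 2.22 FPKM. Together the 10 genes took 1.44% ± 0.0374 (SD, n = 3) of all counts in the controls and 1.04% ± 0.0389 after knockdown.

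Ratios of 2 genes within a library do not depend on how libraries are scaled. The FPKM ratio of FTL to FTH1, light to heavy ferritin chain, was 2.81, 2.67 and 2.82 in sh-ctrl against 2.19, 2.13 and 2.16 in sh-KIF11. On counts, the log2 ratio differed by -0.39, sh-KIF11 minus sh-ctrl. The FPKM ratio of TF to TFRC, carrier to receptor, was 9.98, 10.4 and 8.81 in sh-ctrl against 2.98, 2.77 and 2.80 in sh-KIF11, a log2 difference of -1.80 on counts. The FPKM ratio of TFRC to TFR2 was 12.4, 11.6 and 14.5 in sh-ctrl against 31.7, 40.3 and 38.4 in sh-KIF11, a log2 difference of 1.60 on counts. The ratio of TFRC to FTH1, the receptor against the store, went from a mean FPKM ratio of 0.0459 to 0.0338, a log2 difference of -0.39 on counts, which ran from -0.45 to -0.28 with a library left out. None of the 4 ratios overlapped between groups, and each had a 2-sided exact permutation p = 0.1, also after adjustment over the 4, which is the smallest that 3 libraries against 3 can give. Single genes did not overlap in 71.2% of all genes tested, and the share for other pairs of genes was not computed.

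**Figure D3:**
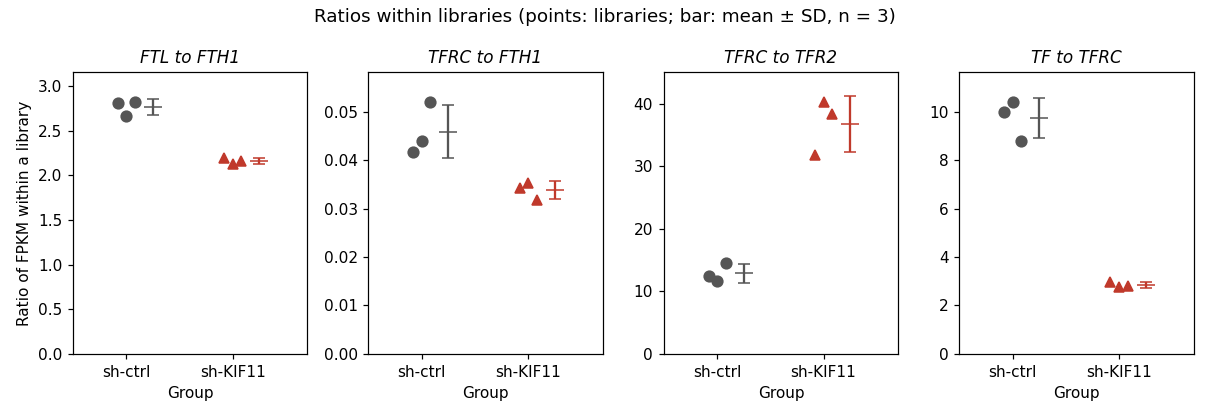
Ratio of FPKM values of 2 genes within each library, on linear axes from 0, with sh-ctrl as grey circles, sh-KIF11 as red triangles and the mean ± SD of 3 libraries beside them. TFRC to TFR2 is higher in all 3 knockdown libraries, and FTL to FTH1, TFRC to FTH1 and TF to TFRC are lower in all 3.

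Grouped by the hairpins printed above, the genes with an element were TFRC and FTL, which were lower, SLC40A1, which was higher, and FTH1, which did not pass. Their log2 fold changes ran from -0.49 to 1.13. Genes with the element in the 5′ UTR thus included a lower, a higher and an uncalled one. Of the 6 others, 5 were lower and HAMP did not pass, over a range of -2.28 to 0.035. These 6 include SLC11A2, so the grouping is by match to the pattern and not by response to iron. Among all genes tested 34.7% were lower and 34.4% higher, and groups this small were not compared by a test. The 5′ elements act on translation, which mRNA counts do not measure. In the annotation deposited with the counts, 7 of the 10 genes carried the KEGG term Ferroptosis (TF, TFRC, FTL, FTH1, SLC40A1, SLC11A2 and CP) and 5 the term Mineral absorption.

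Around the 10 genes, 106 further genes of iron metabolism were followed in 5 lists, and 94 of them could be tested. Of these, 28 were higher and 43 lower, or 75.5% called in all against the 69.1% of all genes tested. Over all genes tested, 34.4% were higher and 34.7% lower. In the list of cellular iron handling, 12 of 20 genes were tested and 83.3% of them called. Of the 12, 4 were higher, 6 lower and 2 not called, with a median log2 fold change of -0.10. SLC39A14, a zinc transporter that also takes up iron not bound to transferrin, fell from 964 to 431 CPM (log2 fold change -1.16 ± 0.05, SE, edgeR adjusted p = 5.93e-23). MELTF, melanotransferrin, fell by 1.49 on the log2 scale, and the metalloreductase STEAP2 rose from 7.31 to 16.3 CPM (log2 fold change 1.16). STEAP3, the endosomal reductase that serves transferrin uptake, was at 112 CPM in sh-ctrl and 113 CPM in sh-KIF11 (log2 fold change 0.0088, edgeR adjusted p = 0.891). It passed, however, under library totals alone (0.24) and under the limma fits on FPKM (0.18 to 0.19). SLC39A8, another metal importer, had 0.774 and 1.30 CPM and passed narrowly (log2 fold change 0.74, edgeR adjusted p = 0.0451), a call lost in 8 of 14 alternatives, among them leaving out any library but sh-ctrl replicate 2. NCOA4, which delivers ferritin to lysosomes, had a log2 fold change of -0.25 ± 0.05 (SE, edgeR adjusted p = 4.45e-05). It did not pass, however, with library totals alone (-0.023) or under the limma fits on FPKM (-0.089 to -0.088).

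In the list of iron regulatory proteins and other IRE mRNAs, 7 of 8 genes were tested. With 3 higher, 3 lower and 1 not called, 85.7% were called against 69.1% of all genes tested, and the median was -0.11. The 2 proteins that bind the hairpins moved apart: ACO1, iron regulatory protein 1, fell from 86.8 to 63.8 CPM (log2 fold change -0.44 ± 0.06, SE, edgeR adjusted p = 3.63e-09). IREB2, iron regulatory protein 2, rose from 85.1 to 109 CPM (log2 fold change 0.36 ± 0.05, SE, edgeR adjusted p = 1.54e-07), and both kept their direction and call under every alternative run. FBXL5, the iron-sensing ubiquitin ligase subunit that removes IREB2 protein, had 56.1 and 51.9 CPM (log2 fold change -0.11, edgeR adjusted p = 0.132). EPAS1, a hypoxia factor, fell by 0.44 on the log2 scale, and CDC42BPA, a kinase, rose by 0.76.

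The list of hepcidin regulation had 27 of 30 genes tested, with 16 higher, 6 lower and 5 not called, and a median of 0.33. Its called share was 81.5%, against 69.1% of all genes tested. The BMP and SMAD pathway is known to drive HAMP transcription. ATOH8, a transcription factor gene induced by this pathway in liver, went from 9, 15 and 12 counts in the controls to 172, 195 and 181 after knockdown (log2 fold change 3.72 ± 0.21, SE, edgeR adjusted p = 4.89e-19). SMAD9 rose by 1.22, SMAD7, an inhibitory SMAD, by 0.83, ID1 by 0.14, a call lost without sh-ctrl replicate 2 (0.12) or sh-KIF11 replicate 1 (0.10), and the cytokine kinase gene JAK2 by 1.37 on the log2 scale. The ligand gene BMP6 had 4.35 and 4.17 CPM (log2 fold change -0.061, edgeR adjusted p = 0.781), and HJV, hemojuvelin, a co-receptor for BMP ligands, had at most 3 counts in any library. TMPRSS6, the protease that dampens hepcidin, went from 47, 18 and 24 counts in the controls to 15, 16 and 10 after knockdown (log2 fold change -1.31 ± 0.35, SE, edgeR adjusted p = 0.00121). Without sh-ctrl replicate 1 that fall was -0.82 and no longer passed (edgeR adjusted p = 0.0709, range over the alternatives 0.000219 to 0.104).

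The 250 bases before the HAMP start (RefSeq, GRCh38.p14, chr19:35282278-35282527, plus strand) are shown because the genes of both pathways known to act there were measured. Capitals mark the letters GGCGCC, the core of BMP response elements, and TTCNNNGAA, the form of a STAT site, both searched on either strand and not overlapping each other.
HAMP promoter: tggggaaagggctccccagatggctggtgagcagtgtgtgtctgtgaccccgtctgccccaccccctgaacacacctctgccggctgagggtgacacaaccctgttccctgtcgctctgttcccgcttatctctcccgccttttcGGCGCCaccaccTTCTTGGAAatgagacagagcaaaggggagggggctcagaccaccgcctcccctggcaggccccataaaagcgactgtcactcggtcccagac
The first match begins 105 bases and the second 93 bases before the start. GGCGCC was not particular to HAMP: it also matched before TF, at positions -157, -121 and -15, and before TFRC, at -201. The TF positions are not all counted from the same start, so the number of separate TF sites is not known here. SLC40A1, HFE, SLC11A2 and FTL had no match to it. Of the members searched, only HAMP matched TTCNNNGAA, and TFR2, FTH1 and CP were not among the promoters. GGCGCC occurred in 16.4% and TTCNNNGAA in 6.57% of the 35116 promoters of the same length, and these matches are a description, not a measure of binding.

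All 23 genes of haem synthesis, transport and breakdown were tested, with 4 higher, 13 lower and 6 not called, and a median of -0.25. Their called share, 73.9%, was near the 69.1% of all genes tested. SLC48A1, which moves haem out of the lysosome, rose from 15.5 to 68.6 CPM (log2 fold change 2.14 ± 0.08, SE, edgeR adjusted p = 3.49e-25). HMOX1, the inducible oxygenase that frees iron from haem, rose from 67.6 to 94.6 CPM (log2 fold change 0.48). The scavengers of free haemoglobin and haem, HP and HPX, fell by 1.85 and 1.71 on the log2 scale, HP from 82.3 to 22.8 CPM and HPX from 2.55 to 0.775 CPM. CPOX, an enzyme late in haem synthesis, fell by 0.81. In iron-sulphur cluster assembly, all 25 genes were tested, with 1 higher, 15 lower and 9 not called, and a median of -0.21. Here 64.0% were called, below the 69.1% of all genes tested. GLRX5, the mitochondrial glutaredoxin that passes on new clusters, fell from 148 to 83.3 CPM (log2 fold change -0.83 ± 0.05, SE, edgeR adjusted p = 1.37e-17), BOLA3 fell by 0.68, NARFL by 0.48 and NUBP2 by 0.46 on the log2 scale. The call of NARFL was lost with limma on log2(FPKM + 1) without a filter on low values (-0.19).

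**Figure D4:**
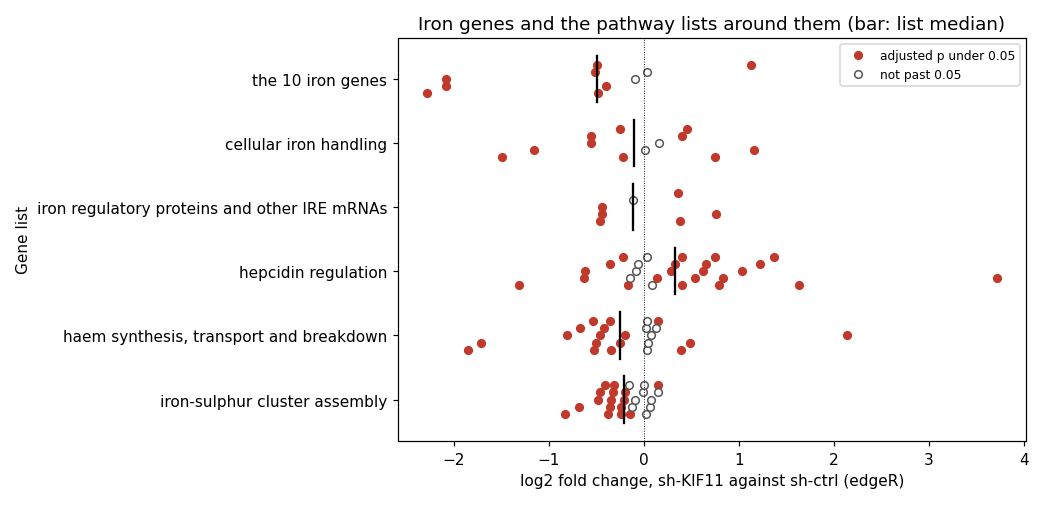
Log2 fold change (sh-KIF11 against sh-ctrl, edgeR) of each tested gene of the 10 iron genes and of the 5 lists around them, filled red where the adjusted p was under 0.05 and open where not, with each list's median as a black bar. The medians lie at -0.49 for the 10 genes, 0.33 for hepcidin regulation and between -0.25 and -0.10 for the other lists, and the single point beyond 3 is ATOH8.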

How the data were processed

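Libraries were grouped by their titles. The knockdown columns are named only shRNA and were read as sh-KIF11, the single shRNA besides the control in the labels. The authors deposited raw counts per gene, not normalized, and a table of FPKM values, scaled by the authors to transcript length and library size. The submitters' processing notes name bcl2fastq 1.8.4, Trimmomatic, HISAT2 2.1.0, Cufflinks 2.2.1, HTSeq 0.9.1, DESeq and GRCh38, without their settings. Whether counting used strand, and how reads matching several genes were treated, is not given in the sources used here.

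Counts were tested in R 4.3.3 with edgeR 4.0.16 (filterByExpr, TMM, quasi-likelihood F test, 2-sided, Benjamini-Hochberg over all 12369 genes tested, threshold 0.05). Alternatives were other scalings and filters, DESeq2 1.42.0, limma 3.58.1 on log2(FPKM + 1) and log2(FPKM + 0.1), a replicate block, and leaving out each library. The code was tested on simulated data. Nothing states that replicates came from separate cultures, so p-values measure the spread between these libraries, which may be technical.

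The 10 genes and the lists were chosen with earlier results of these data known. Named besides them were KIF11, up to 4 genes a list with the largest change among those past 0.05 with a mean of at least 1 CPM, and 11 regulators picked by role. A result for some of these is not reported here. Gene positions are GRCh38, GENCODE 29.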

Additional observations from a re-analysis of the deposited data

How the results depend on the processing

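TF, TFRC, TFR2, FTL, SLC40A1, SLC11A2, CP, HFE and KIF11 kept their direction and their call under all 16 alternatives run for each, and 8 to 10 of the 10 iron genes and 65 to 72 of the pathway genes passed. Same-numbered libraries of the groups did not deviate together (Pearson's r across genes from -0.018 to 0.030), and with a replicate block 8 of the iron genes passed. FTH1 had the opposite sign with library totals alone (0.13), with limma on log2(FPKM + 1) with and without the filter (0.10) and on log2(FPKM + 0.1) (0.10). Without a filter on low counts it was -0.11 and passed, and with each library left out it ran from -0.14 to -0.073, passing without sh-ctrl replicate 3 (edgeR adjusted p = 0.00124) and without sh-KIF11 replicate 3 (edgeR adjusted p = 0.0378). HAMP passed under library totals alone (0.27) and under limma on log2(FPKM + 1) (0.23, also 0.23 without the filter) and on log2(FPKM + 0.1) (0.24).

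Of the other genes named, 3 changed sign. STEAP3 was at -0.0025 without the filter on low counts and ran from -0.025 to 0.043 with a library left out. FBXL5 was at 0.12 with library totals alone and at 0.050 with limma on log2(FPKM + 1), with and without the filter, and at 0.054 on log2(FPKM + 0.1), and without sh-KIF11 replicate 1 it was at -0.18 and passed. BMP6 was at 0.018 with upper-quartile scaling, 0.17 with library totals alone, 0.045 with limma on log2(FPKM + 1) with and without the filter and 0.082 on log2(FPKM + 0.1), and ran from -0.23 to 0.042 with a library left out. On log2(FPKM + 1), which understates low genes, ATOH8 was at 0.99, MELTF at -0.70 and HPX at -0.64. There 5009 genes were higher and 2565 lower of 11069 tested. Summing FTL with its copies was not run, since the table lists none. Depth limits TMPRSS6, SLC39A8, HPX and HJV, whose counts were low, and counting intervals would cover counting error only. With 3 libraries a group, no exact permutation test can go below p = 0.1.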
